A study of Homo sapiens with 8 samples.

Results

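JAK1, AK4, DNAJC6 and LEPR lie next to each other on chromosome 1, and their trimethylation of histone H3 at lysine 36 (H3K36me3) was followed in HepG2, a cell line from a human liver carcinoma. Peaks of H3K36me3 ChIP-seq were taken as belonging to the locus where they overlapped 1 of the 4 gene spans by at least 1 bp. That gave 11 of the 35375 peaks called in cells with a control shRNA and 36 of the 23488 peaks called in cells with an shRNA against SETD2. The genes were chosen by covered length, because the surrounding window held more peak length in the SETD2 knockdown list, so the lengths, counts and densities below are descriptions of that choice and none was tested.

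The 8 libraries made 4 groups of 2 replicates: immunoprecipitate and input DNA from cells with a non-specific control shRNA, and the same from cells with a SETD2 shRNA. All cells carried a lentiviral shRNA, were infected with virus collected at 48 and 72 h in the presence of 4 μg/mL polybrene, and were kept under 1 μg/mL puromycin. The replicates of a group were pooled before peaks were called, so each condition had 1 peak list, with no spread between replicates and no p-value between conditions. Without duplicates, 47880817 immunoprecipitated tags stood behind the control list and 67053273 behind the knockdown list, the deeper of the pair. SETD2 itself, the identity of the cells by liver markers and the number of hairpins behind each label were not analysed here.

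SETD2 is the methyltransferase that adds the third methyl group to lysine 36 of histone H3. It travels with elongating RNA polymerase II, and the mark therefore usually lies over the bodies of transcribed genes and grows stronger away from the promoter. JAK1 encodes a tyrosine kinase that carries interferon and interleukin signals to STAT transcription factors. AK4 encodes an adenylate kinase of the mitochondrial matrix. DNAJC6 encodes auxilin, a co-chaperone that strips clathrin from coated vesicles and is best known in neurons. LEPR encodes the receptor for the fat hormone leptin, and LEPROT, a small gene for a membrane protein that acts on receptor trafficking, begins at the same promoter.

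In hg19 the spans were chr1:65298906-65432187 for JAK1 (133 kb, transcribed towards lower coordinates), chr1:65613232-65697828 for AK4 (84.6 kb), chr1:65730454-65881552 for DNAJC6 (151 kb) and chr1:65886335-66103176 for LEPR (217 kb), the last 3 transcribed towards higher coordinates. The start of transcription of a gene below means the upstream edge of its span. RefSeq lists 3 promoters for JAK1, 4 for AK4 and 2 each for DNAJC6 and LEPR, and distances from single promoters were not computed. Peaks covered 74.5 kb of the 586 kb in these spans in the control list and 154 kb in the knockdown list, which is 2.07 times as much. AK4 was called in the same places in both lists. JAK1 was called over its downstream part in the control and its upstream part in the knockdown. DNAJC6 had peaks only in the knockdown list, and LEPR had 1 shared domain near its start. Under several stricter limits given below, no knockdown peak was left on JAK1. Peaks of both lists coincided over 41.2 kb, a share of 55.3% for the control peaks and 26.7% for the knockdown peaks.

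**Figure D1:**
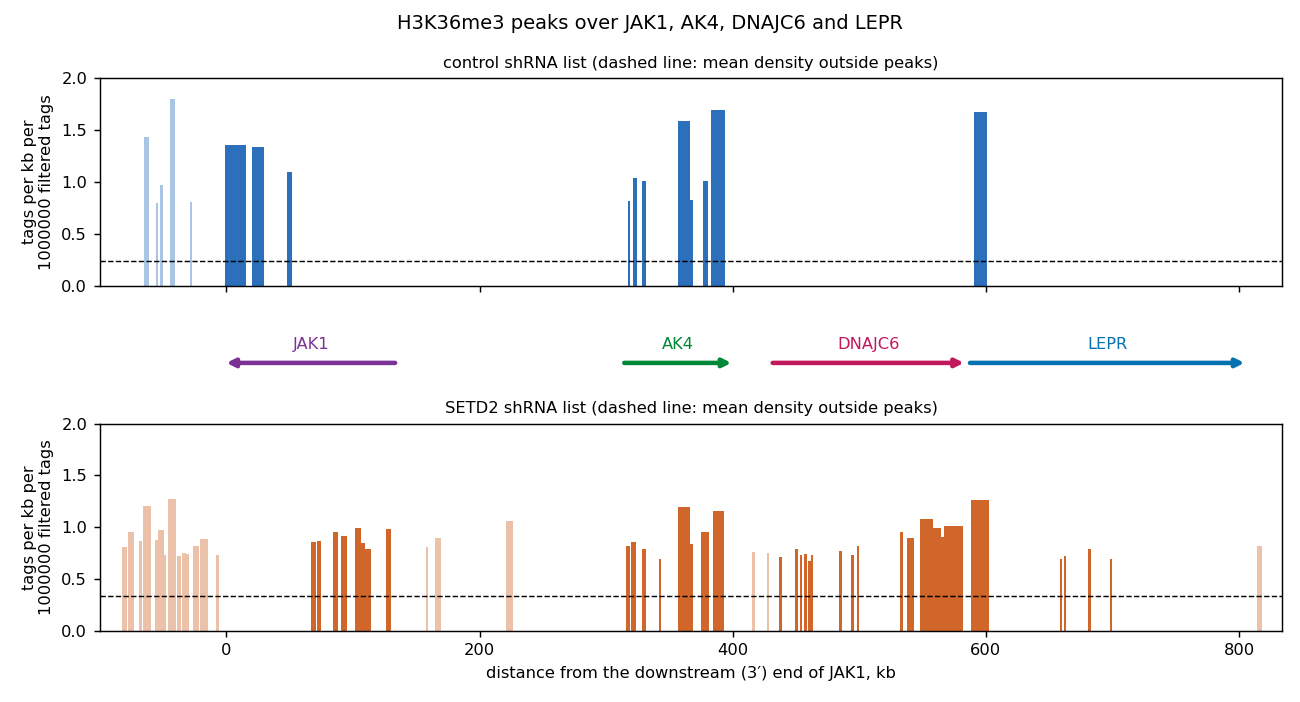
Peaks of the control list (top) and the SETD2 knockdown list (bottom) along the locus. The horizontal axis is the distance in kb from the downstream end of JAK1, bar width is the width of a peak, bar height is its tag density in tags per kb per 1000000 filtered tags, and pale bars are peaks outside the 4 spans. Control peaks at JAK1 sit over the downstream end, knockdown peaks over the upstream part, and over DNAJC6 peaks appear in the knockdown list alone.

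By the measures of the authors' caller, the knockdown peaks on the genes had a lower median fold enrichment than their whole list, with stronger peaks among them on DNAJC6 and AK4. A peak's score is the log10 of its p-value against local input, multiplied by minus 10, its fold enrichment is immunoprecipitate over that background, and its false discovery rate (FDR) comes from calls with immunoprecipitate and input exchanged. All of these are the authors' values. Of the 36 knockdown peaks on the genes, 1 had an FDR of 5% or less (5.30% of all knockdown peaks did) and 20 had a score of 100 or more (66.9% of all). Of the 11 control peaks, 7 had an FDR of 5% or less (50.5% of all control peaks) and 10 a score of 100 or more (75.5%). The median fold enrichment was 3.19 for the knockdown peaks on the genes against 3.71 over the whole list, and 5.26 for the control peaks against 4.88.

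Which list covered more length changed with the limit set on peaks. Where both lists were held to an FDR of 5% or less, the knockdown covered 9.33 kb of the spans and the control 51.8 kb. That limit fell at unlike scores in the lists. The lowest control score within it was 227.88. A DNAJC6 knockdown peak with a score of 809.01 lay outside it, with an FDR of 7.59%. When a fold enrichment of at least 5 was asked for, the lengths were 34.8 kb in the knockdown and 63.4 kb in the control. The knockdown still covered more at a score of 100 or more, with 101 kb against 73.0 kb. The same held at a score of 227.88, the lowest with an FDR of 5% or less in the control list, where the lengths were 63.0 kb and 51.8 kb. DNAJC6 supplied 60.0 kb of the 79.7 kb by which the knockdown exceeded the control. Its knockdown length was 0 kb at the FDR limit, 35.6 kb at a score of 100, 16.3 kb at the fold limit and 24.2 kb at the score of 227.88. DNAJC6 therefore had no peak in either list under the FDR limit. The knockdown was the deeper library, and depth and condition cannot be told apart in these lengths.

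Of the 11 control peaks on the genes, 8 overlapped a knockdown peak, against 39.5% of all control peaks. In the knockdown list 8 of the 36 met a control peak, against 83.0% of all knockdown peaks. Those 8 had a median width of 5.36 kb and a median FDR of 54.4%. The other 28 had a median width of 2.502 kb and a median FDR of 78.7%, with 7.59% as the lowest.

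Tag density is the number of tags in a peak divided by its width in kb and by the filtered tags in units of 1000000. Its Poisson 95% intervals cover counting error only. Over the control peaks on the 4 genes it was 1.38 (1.35 to 1.42), and over the knockdown peaks 0.957 (0.938 to 0.976). Outside peaks the control had 0.235 and the knockdown 0.337, so the called stretches stood 5.90 and 2.84 times above the rest of the genome. Each density was taken over its own list's peaks, which cover different ground.

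JAK1 had 3 control peaks, all towards its downstream end. The widest, chr1:65297995-65314652, ran across the end of the gene, with 15747 of its bases inside the span, and held 1080 tags at a density of 1.35 (1.28 to 1.44). The peak with the highest fold enrichment, 11.12, was chr1:65318952-65328799, with 632 tags at a density of 1.34 (1.24 to 1.45). The last, chr1:65346631-65351076, lay 81.1 to 85.6 kb from the start of transcription and held 233 tags at a density of 1.095 (0.959 to 1.24). With the span cut into 10 equal parts from the start of transcription, control peaks covered 0% of parts 1 to 6 and 100% of part 10.

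The knockdown list had 8 JAK1 peaks, none of which touched a control peak. They lay between 3.07 and 66.2 kb from the start of transcription, and all of the 32.1 kb they covered was in parts 1 to 5 of the span. Parts 6 to 10 held no knockdown peak, while 30.04 kb there was covered in the control. The peak-free stretch of the knockdown list ran from 65293297 to 65366030, 72.7 kb long, with knockdown peaks on either side and all 3 control peaks inside it. Tag numbers of stretches without a peak were not analysed here, so no bound can be put on the knockdown signal there. A stretch with many tags whose score misses the caller's limit is also left out of a list, and low scores at peaks with many tags occurred on JAK1 and DNAJC6 (values given with the plot of score against tags). Whether a JAK1 stretch was left out of the knockdown list in that way was not tested. The placing of the peaks in opposite parts of the gene carries that limit.

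The knockdown peaks of JAK1 were alike in size and low in enrichment. Their widths ran from 3.16 to 4.96 kb and their tags from 182 to 305. Densities ran from 0.787 to 0.996, on both sides of the median of 0.907 over all knockdown peaks. Fold enrichments ran only from 2.30 to 3.30, all below the list median of 3.71. The widest was chr1:65389566-65394525, with 305 tags, a density of 0.917 (0.817 to 1.03), a fold enrichment of 2.56 and an FDR of 74.8%. The one with the highest fold enrichment was chr1:65405009-65408226, with 182 tags, a density of 0.844 (0.725 to 0.975) and an FDR of 75.4%. FDR values of all 8 lay between 64.3% and 92.7%, and the peak nearest the middle of the gene, chr1:65366031-65369834, had a score of 50.7, just above the calling limit of 50.

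**Figure D2:**
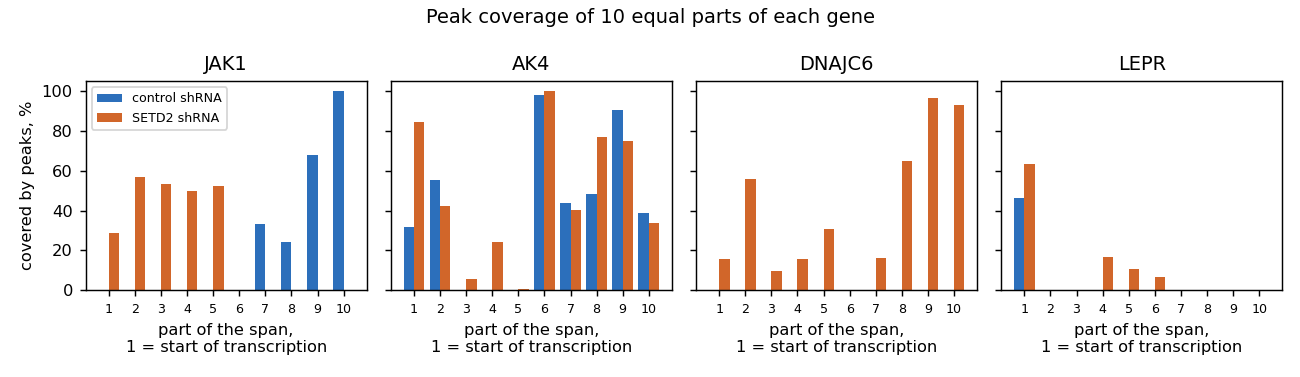
Share of each of 10 equal parts of a gene span covered by peaks, in percent, counted from the start of transcription, for the control (blue) and the knockdown list (orange). JAK1 is covered in parts 7 to 10 in the control and 1 to 5 in the knockdown, AK4 in like parts in both, DNAJC6 in the knockdown alone and LEPR mostly in part 1.

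AK4 was the gene with the closest match between the lists. It had 7 control peaks and 8 knockdown peaks, and every control peak met 1 knockdown peak. Covered length was 34.4 kb in the control, 40.7% of the span, and 40.9 kb in the knockdown, 48.4% of the span. Of the control length, 90.6% was also called in the knockdown. Coverage in both lists was heavier in parts 6 to 10 of the gene, which held 27.0 kb of the control and 27.6 kb of the knockdown length. The knockdown peak without a partner, chr1:65640401-65642459, was the narrowest of the 8 at 2.06 kb and held 96 tags at a density of 0.695.

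The strongest AK4 domains were those in the later part of the gene. The widest control peak, which also had the highest fold enrichment of the gene's control peaks at 8.70, was chr1:65681703-65692628. It held 888 tags at a density of 1.70 (1.59 to 1.81), and the knockdown peak over it, chr1:65683025-65692227, held 714 tags at 1.16 (1.07 to 1.25). In the knockdown the widest AK4 peak and the one with the highest fold enrichment, 6.77, was chr1:65655460-65664789. It held 748 tags at a density of 1.20 (1.11 to 1.28), against 702 tags at 1.59 (1.48 to 1.71) in the control peak beneath it. With an FDR of 0.98%, it was the only peak on the 4 genes in the shorter deposited knockdown list.

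The other AK4 domains had lower control densities than these. At the first, near the start of transcription, the control density was 0.816 (0.620 to 1.06) and the knockdown density 0.822 (0.715 to 0.941). These were not measured over the same ground, since the control peak was 1.484 kb wide and the knockdown peak 3.845 kb. At the fifth the values were 0.830 (0.682 to 1.00) and 0.841 (0.711 to 0.988), and at the sixth 1.01 (0.873 to 1.16) and 0.9499 (0.861 to 1.05). At these 3 the interval of the log2 ratio of density held 0. At the second the control density was 1.04 and the knockdown density 0.853, and 0 was again inside the interval of the ratio (-0.28, from -0.58 to 0.02). At the third they were 1.01 and 0.787, and the ratio of -0.36 (-0.70 to -0.02) lay below 0.

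**Figure D3:**
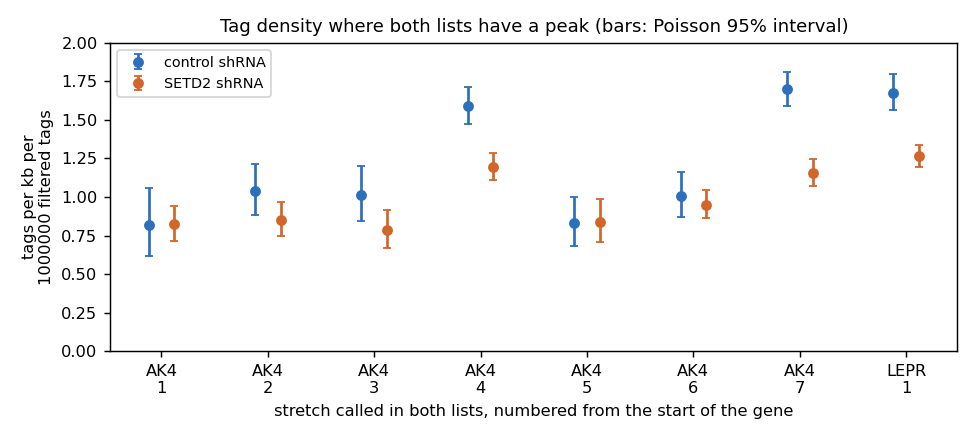
Tag density in tags per kb per 1000000 filtered tags in the 8 stretches where both lists had a peak, 7 on AK4 and 1 on LEPR, with Poisson 95% intervals as bars. Each density is taken over the width of its own list's peak. The gap between control (blue) and knockdown (orange) is widest where the control density is highest, at the fourth and seventh AK4 stretches and at LEPR.

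Over the 8 stretches called in both lists, the log2 ratio of knockdown over control density ran from -0.55 to 0.02, with a median of -0.32. Each density was taken over its own list's peaks, whose widths could differ within a stretch. At LEPR they were 10.05 kb in the control and 13.78 kb in the knockdown. The median over all 13443 such stretches of the genome was -0.67, with quartiles of -0.87 and -0.46. The ratio was below 0 in 6 of the 8, against 98.3% of all stretches, and its exact conditional binomial 95% interval lay below 0 in 4 of the 8, against 87.2%. For none of the 8 did the interval lie above 0. The 2 AK4 ratios that were not below 0 were 0.01 (-0.42 to 0.46) and 0.02 (-0.35 to 0.39). These ratios compare 2 pooled libraries and not the conditions, carry no background correction, and come from the contrast by which the genes were picked.

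DNAJC6 had no control peak and 15 knockdown peaks that covered 60.0 kb, or 39.7% of its span. The control list was empty from 65692629 to 65889639, a stretch of 197 kb from the last AK4 peak to the LEPR domain. Knockdown coverage was uneven along the gene: 19.2 kb lay in parts 1 to 5 and 40.8 kb in parts 6 to 10, with 96.4% of part 9 and 92.8% of part 10 covered. The peaks over the first parts of the gene were narrow and thin. The 9 nearest the upstream edge of the span, taken as the start of transcription, had 71 to 144 tags. Their densities were 0.670 to 0.814, all below the list median of 0.907.

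Towards the end of DNAJC6 the peaks were wider and denser. From 116.6 to 150.0 kb after the start of transcription, 4 peaks followed each other with short gaps. The first of them, chr1:65847024-65856781, held 706 tags at a density of 1.08 (1.00 to 1.16) and had the gene's lowest FDR, 7.59%. The next, chr1:65856824-65863354, held 435 tags at 0.993 (0.902 to 1.09) and had the highest fold enrichment of the gene, 5.62. After a peak of 139 tags with an FDR of 65.3% came the widest, chr1:65866132-65880462, with 970 tags at 1.01 (0.947 to 1.07). By the caller's values this widest peak was weak, with a fold enrichment of 3.06 and an FDR of 81.9%. Over the whole gene the summed density was 0.917 (0.887 to 0.947), which is 2.72 times the density outside peaks in the knockdown.

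RefSeq lists 2 starts for DNAJC6, which are shown because this was the gene called in the knockdown list alone. The windows run from 250 bases before to 50 bases after each start, on the plus strand of GRCh38.p14, 5′ to 3′, with each CG, the letters that DNA methylation acts on, in capitals. CG reads the same on both strands, and its copies do not overlap. Positions of these starts relative to the hg19 peaks were not used. The second start lies downstream of the first, so peaks near the upstream edge of the span may lie before it.
DNAJC6 first window, chr1:65264499-65264798: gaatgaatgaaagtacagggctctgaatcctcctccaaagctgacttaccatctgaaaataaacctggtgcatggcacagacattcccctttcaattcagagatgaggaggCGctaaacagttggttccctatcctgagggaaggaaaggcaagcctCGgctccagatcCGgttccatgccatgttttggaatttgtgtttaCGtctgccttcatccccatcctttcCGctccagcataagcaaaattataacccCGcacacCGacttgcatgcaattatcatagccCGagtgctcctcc
DNAJC6 second window, chr1:65309293-65309592: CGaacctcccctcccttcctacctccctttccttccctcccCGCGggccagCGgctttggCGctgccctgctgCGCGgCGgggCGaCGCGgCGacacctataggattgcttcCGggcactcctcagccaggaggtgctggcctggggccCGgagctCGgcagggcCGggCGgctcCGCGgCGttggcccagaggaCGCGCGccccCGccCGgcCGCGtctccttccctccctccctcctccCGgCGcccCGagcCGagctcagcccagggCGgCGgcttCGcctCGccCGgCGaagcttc
The first window holds 8 CG and the second 37. Among the 35116 promoter windows of this length in RefSeq, 60.7% hold at least 8 CG and 11.3% at least 37.

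LEPR had 1 control peak and 5 knockdown peaks. The control peak, chr1:65889640-65899691, lay 3.31 to 13.4 kb from the start of transcription and held 806 tags at a density of 1.68 (1.56 to 1.79). The knockdown peak over it, chr1:65887476-65901254, was the wider at 13.8 kb and covered all of it, with 1168 tags at 1.26 (1.19 to 1.34). Its log2 ratio of density was -0.41 (-0.54 to -0.27). In tag number and in density it was the highest knockdown peak on the 4 genes, and its FDR was 25.2%.

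The rest of LEPR was nearly bare. The other 4 knockdown peaks lay 71.0 to 112 kb from the start, were 1.45 to 2.33 kb wide, and held 87, 83, 123 and 67 tags at densities of 0.690, 0.718, 0.787 and 0.689. The one with the highest fold enrichment, 3.70, was chr1:65979848-65982178. Their FDR ran from 74.5% to 89.4%. In both lists parts 7 to 10 of LEPR had 0% covered, so the gene's covered length of 10.1 kb in the control and 21.2 kb in the knockdown lay mainly by its start.

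The domain near the start of LEPR lies downstream of the promoter at which LEPR and LEPROT begin together. It opens 3.31 kb after the LEPR start in the control and 1.14 kb after it in the knockdown. The RefSeq window of LEPROT is letter for letter the same as 1 of the 2 windows of LEPR, and the other starts 16 bases away, so reads over the first part of LEPR cannot be given to either gene. The shared window is on the plus strand of GRCh38.p14, written as above.
LEPROT and LEPR, chr1:65420418-65420717: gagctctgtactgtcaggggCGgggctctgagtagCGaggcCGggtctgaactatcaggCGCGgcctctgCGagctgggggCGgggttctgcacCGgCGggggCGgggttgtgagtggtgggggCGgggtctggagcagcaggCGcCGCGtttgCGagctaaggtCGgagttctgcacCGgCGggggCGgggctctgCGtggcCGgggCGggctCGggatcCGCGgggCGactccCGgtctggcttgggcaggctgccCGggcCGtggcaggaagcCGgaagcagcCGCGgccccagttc
It holds 32 CG, and 18.9% of the RefSeq windows hold as many or more.

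Score and tag number went apart at some of the largest peaks of the locus. The JAK1 control peak of 1080 tags had a score of 163.07 and an FDR of 7.03%, although its fold enrichment of 8.39 was higher than that of 82.6% of control peaks. Of the 903 control peaks within 10% of its tag number, 5.98% scored lower, and their median score was 1199. The DNAJC6 knockdown peak of 970 tags had a score of 87.6 and an FDR of 81.9%. Of the 605 knockdown peaks within 10% of its tag number, 4.96% scored lower, and their median score was 633. An FDR limit of 5% therefore removes the JAK1 peak of 1080 tags and keeps the one of 233 tags, and a score limit of 100 removes the DNAJC6 peak of 970 tags and keeps one of 92 tags.

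**Figure D4:**
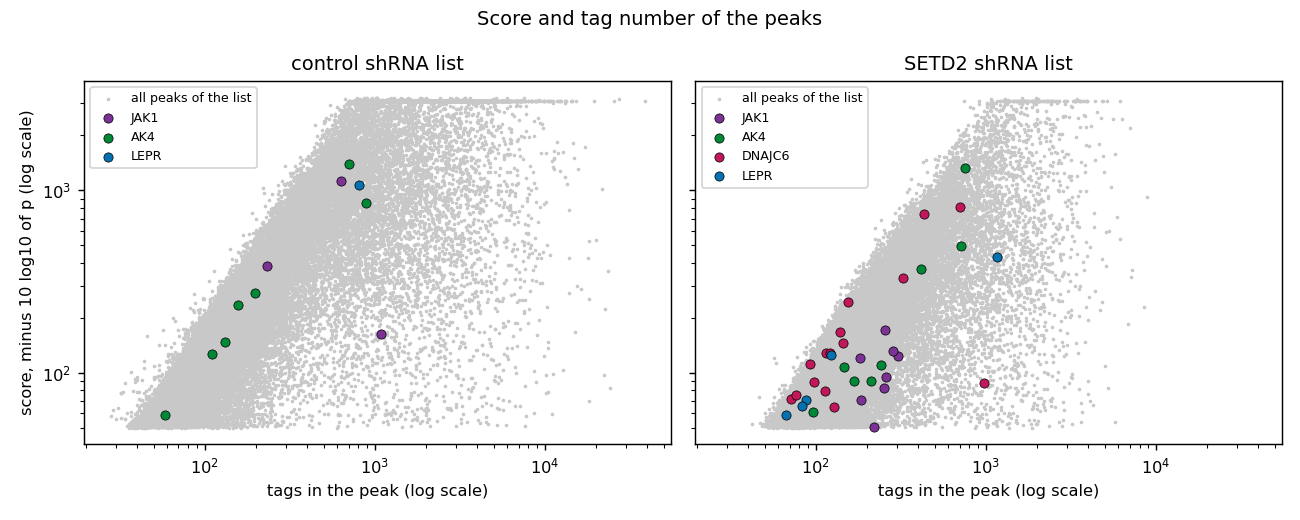
Score against the number of tags of each peak, both on log scales, for the control (left) and the knockdown list (right), with all peaks of a list in grey and those on the genes in colour. The JAK1 peak of 1080 tags in the control and the DNAJC6 peak of 970 tags in the knockdown lie below most peaks with like numbers of tags.

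The ground between the genes was called in the knockdown list alone. From JAK1 to AK4, 181 kb, it had 3 peaks over 11.7 kb. From AK4 to DNAJC6, 32.6 kb, it had 2 over 4.04 kb. None of these peaks met a control peak, whereas 83.0% of all knockdown peaks did. FDR values were 92.7%, 54.5% and 19.6% at the first 3 and 91.0% and 92.1% at the other 2. The 3 peaks with the highest FDR had scores of 50.6, 55.42 and 52.55, just above the calling limit. The strongest was chr1:65520028-65525130, 87.8 kb from JAK1, with 362 tags at a density of 1.06 (0.952 to 1.17) and a fold enrichment of 4.90. The peak nearest to a span without touching it, chr1:65725816-65727711, lay 2.74 kb before DNAJC6 with a density of 0.747, and the first peak inside that gene, chr1:65735748-65738121, had 0.710. No peak of either list lay in the 4.78 kb between DNAJC6 and LEPR.

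The locus lies in a run of 1 Mb windows with more covered length in the knockdown list. In the window from 65 to 66 Mb, the control covered 88.7 kb and the knockdown 224.3 kb, the value by which the genes were picked and the third largest gain among 2177 windows with a peak. Of the 12 windows from 60 to 72 Mb, 11 held a peak. Of those 11, 9 had more covered length in the knockdown, against 9.28% of the 2177. The 9 include the window by which the genes were picked. They also include the window from 71 to 72 Mb, with 21.4 kb in the control and 22.2 kb in the knockdown. Windows were computed on the full lists only, without the limits on FDR, fold enrichment or score. The largest gain of all was in the window from 66 to 67 Mb, with 0 kb in the control and 187 kb in the knockdown. Among the 12, the largest drop was in the window from 60 to 61 Mb, from 82.3 to 61.8 kb, and the window from 69 to 70 Mb had no peak in either list.

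**Figure D5:**
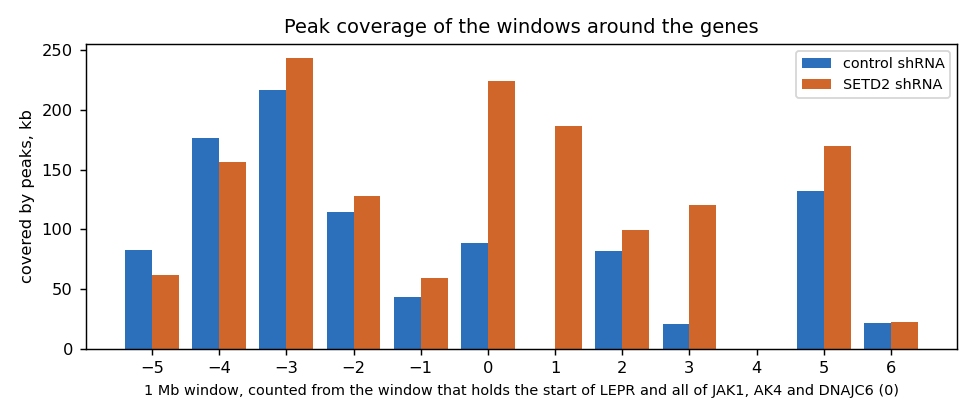
Length covered by peaks, in kb, in the 12 windows of 1 Mb around the genes, for the control (blue) and the knockdown list (orange). Window 0 runs from 65 to 66 Mb of chromosome 1, and the knockdown bar is the higher in 9 of the 12 windows.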

How the data were processed

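H3K36me3 immunoprecipitates and inputs were sequenced in 8 libraries. Per the submitters' processing notes, Bowtie 1.1.2, FastQC 0.11.5 and the build hg19 were used. MACS 1.4.2, per the file headers, called peaks from 1 merged immunoprecipitate against 1 merged input per condition, at a p-value limit of 1e-05, with 1 tag kept per position. The deposited tag counts are whole numbers, the deposited score is minus 10 times log10 of p, the deposited fold enrichment is a ratio over local input, and the deposited FDR is in percent. Each shorter deposited list matched its table's peaks at an FDR of 5% or less (17856 control, 1244 knockdown). Gene spans were taken as given and not checked against an hg19 annotation; strands and promoter windows came from RefSeq on GRCh38.p14, which held all 4 genes.

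Coverage counts the part of a peak inside a span. Intervals (exact or Poisson, 95%) cover counting error only. Stretches called in both lists join overlapping peaks and sum their tags and lengths. Named peaks are, per gene and list, the widest and the one with the highest fold enrichment; other peaks were chosen after their values were seen. Members and lists were chosen with earlier results of these data known. Alternatives were an FDR of 5% or less, the shorter lists, a score of 100 or more, a fold enrichment of 5 or more, 1 score limit in both lists, merging within 3000 bp, spans extended by 5000 bp, 50% overlap, all tags as depth, and tags shared out by the part inside the span. Calculations used Python 3.11.15, pandas 2.3.3, NumPy 2.4.6 and SciPy 1.17.1, with plots from matplotlib 3.10.9, and were tested on simulated lists.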

Additional observations from a re-analysis of the deposited data

How the results depend on the processing

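Knockdown length on the 4 genes was 207% of the control length, 138% at a score of 100 or more, 122% at a score of 227.88 in both lists and 211% with peaks merged within 3000 bp, but 54.9% at a fold enrichment of 5 or more and 18.03% at an FDR of 5% or less (18.03% too from the shorter lists). By gene, in the order FDR or shorter lists, score of 100, fold of 5 and single score limit, JAK1 went from 107% to 0%, 57.5%, 0% and 0%, and AK4 from 119% to 34.1%, 96.9%, 79.5% and 91.4%. DNAJC6, with no control peak under these limits, went from 60.0 kb in the knockdown to 0, 35.6, 16.3 and 24.2 kb. LEPR went from 211% to 0% under the FDR and fold limits and kept its direction under both score limits. These limits leave fewer peaks in the list; any further cause was not tested. Peaks on the genes numbered 7 in the control under the FDR, fold and single score limits. In the knockdown they numbered 1 (FDR), 20 (score of 100), 4 (fold), 8 (single score limit) and 20 (merged). Under the FDR limit 14.3% of the 7 control peaks on the genes met a peak of the other list, as did the 1 knockdown peak left (100%). Under the fold limit 28.6% of the 7 control peaks and 50% of the 4 knockdown peaks did. At the single score limit 50% of the 8 knockdown peaks did. Shares over all peaks were not computed at these limits. Control density ran from 1.20 (all tags as depth) through 1.46 (FDR, fold and single score limits). Knockdown density was 0.841 with all tags, 1.01 at a score of 100, 1.11 at the single score limit, 1.11 at the fold limit and 1.20 at the FDR limit. The median log2 density ratio was -0.41 (FDR limit, 1 stretch), -0.34 (score of 100), -0.48 (fold limit), -0.41 (single score limit), -0.36 (merged), -0.30 (all tags) and -0.36 (pairs with 50% reciprocal overlap). The control covered none of parts 1 to 5 of JAK1 under any setting run, and the knockdown peaks of JAK1, where any were left, lay there alone. None were left under the FDR, fold and single score limits. The other settings kept or merged the same peaks, so they are no separate check of where the peaks lie. No paired analysis was possible because the replicates were merged before peaks were called, so no replicate could be left out either.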

Other observations

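Beyond the downstream end of JAK1, on the side of its neighbour RAVER2, which encodes an RNA-binding protein, the lists met over part of their peaks. In the 100 kb before the JAK1 span the control had 14.2 kb covered and the knockdown 54.3 kb. Of the 5 control peaks wholly in that stretch 4 met a knockdown peak, against 39.5% of all control peaks. Of the 14 knockdown peaks 4 met a control peak, against 83.0% of all knockdown peaks. The densest peaks of the lists fell together there: chr1:65254096-65257915 in the control had a density of 1.80 (1.62 to 2.01), and chr1:65252801-65258756 in the knockdown had 1.27 (1.16 to 1.39), with an FDR of 6.64%. The knockdown peak closest to JAK1, chr1:65290372-65293296, ended 5.61 kb short of the gene and had a density of 0.734. In the 100 kb after LEPR the control had no peak and the knockdown had 1, chr1:66113456-66117252, with a density of 0.821 (0.713 to 0.940) and an FDR of 50.9%.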
